A study of Mus musculus with 13 samples.

Results

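The genes described here are 10 genes of interleukin-1 (IL-1), tumour necrosis factor (TNF) and NF-kB signalling, chosen by name: Il1b, Il1r1, Il1rn, Tnf, Tnfaip3, Nfkbia, Nfkbiz, Ptgs2, Ptges and Icam1. All 10 were among the 23211 genes of the count matrix, and all 10 passed the filter on low counts. RNA was sequenced from mouse cells sorted as negative for lineage markers and positive for the leptin receptor (LEPR), a surface marker of marrow stromal cells. Fibrous tissue around PMMA tibia implants gave 7 libraries, called fibrous 1 to 7, and bone around Pressfit tibia implants gave 6, called bone 1 to 6. The names of 4 libraries (fibrous 6, fibrous 7, bone 5 and bone 6) hold XY9274, and those of the other 9 hold L002. Among the L002 names, 3 hold Lin (fibrous 5, bone 3 and bone 4), 5 hold plus (fibrous 2, fibrous 3, fibrous 4, bone 1 and bone 2), and that of fibrous 1 holds neither. Every group had a tibia implant and carries the same label of the sort, and no group without an implant was analysed here. Every fibrous library came from a PMMA implant and every bone library from a Pressfit implant. Tissue and implant type therefore cannot be told apart in any comparison of fibrous and bone libraries. Strain, genotype, age and the number of animals behind a library are not given in the labels. The p-values therefore measure the spread between libraries, which may be technical.

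IL-1 and TNF are cytokines of innate immunity whose receptors activate the kinase that releases NF-kB, a family of transcription factors, from its inhibitors. NF-kB then switches on inflammatory genes together with its own brakes, which include the inhibitor IkB-alpha (Nfkbia) and the ubiquitin-editing enzyme A20 (Tnfaip3). Around implants, this pathway is known for its part in inflammation and in the loss of bone.

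Promoters are shown first because NF-kB binds its targets through short kappaB motifs. RefSeq promoters of build GRCm38.p6, each with 250 bases before and 50 bases from the start site on, matched 9 of the 10 genes, with 13 start sites in all. The kappaB consensus was searched on both strands. It was found in 3 of the 13 promoters, 1 each of Tnfaip3, Nfkbia and Il1r1, against 4.51% of all 32851 mouse promoters of the same length. The Tnfaip3 promoter at chr10:19015361-19015660 (minus strand) and the Nfkbia promoter at chr12:55492598-55492897 (minus strand) are printed because these feedback inhibitors are classic NF-kB targets, with each kappaB match in capitals.
Tnfaip3: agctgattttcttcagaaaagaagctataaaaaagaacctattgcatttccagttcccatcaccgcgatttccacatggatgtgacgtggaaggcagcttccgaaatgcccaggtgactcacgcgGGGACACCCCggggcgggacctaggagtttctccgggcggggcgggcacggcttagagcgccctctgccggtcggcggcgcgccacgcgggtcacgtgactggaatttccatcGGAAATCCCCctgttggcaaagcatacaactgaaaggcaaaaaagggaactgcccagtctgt
Nfkbia: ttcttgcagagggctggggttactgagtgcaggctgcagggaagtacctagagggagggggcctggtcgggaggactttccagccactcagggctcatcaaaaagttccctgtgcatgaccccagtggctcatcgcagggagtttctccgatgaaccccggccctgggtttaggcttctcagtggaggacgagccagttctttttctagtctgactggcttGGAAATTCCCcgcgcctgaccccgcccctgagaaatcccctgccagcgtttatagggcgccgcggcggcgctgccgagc
In Tnfaip3 the matches lay at bases -125 to -116 and -12 to -3 from the start site, and in Nfkbia the match lay at -29 to -20. An AP-1 motif (TGANTCA, either strand, in 7.81% of all promoters) was found in the same Tnfaip3 promoter at -136 to -130, with no overlap with a kappaB match, and in 1 promoter of Il1rn. The CRE motif TGACGTCA, held by 1.79% of all promoters, was in none of the 13. A match describes the letters only and is not a measurement of binding.

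Library totals were 18056208 to 44302166 counts in fibrous libraries and 16162321 to 43217004 in bone libraries. The 4 XY9274 libraries, with at least 30286397 counts, were each deeper than all 9 L002 libraries. Levels below are counts scaled to library size with TMM factors (normalised CPM). Lepr, the gene of the sorted receptor, was below 5 normalised CPM in 5 libraries (fibrous 1, fibrous 5, bone 3, bone 4 and bone 5), which goes against the label of the sort. In all 3 Lin-named libraries it lay between 0.602 and 0.739 normalised CPM. The summed level of 8 pan-leukocyte markers was 224 to 2019 normalised CPM in fibrous libraries and 270.2 to 6723 in bone libraries, and all 8 were detected in every library except bone 4, where Ptprc was at 0. The 12 neutrophil markers summed to 683 to 23756 normalised CPM in fibrous libraries and 1790 to 94478 in bone libraries, with both leukocyte maxima in bone 5. In such bulk samples, fewer cells of a type and less RNA per cell cannot be told apart.

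None of the 10 genes differed between fibrous and bone libraries at an adjusted p under 0.05. With the name series as a term, edgeR's quasi-likelihood test called 0 of 13294 genes, or 0.0%, at an adjusted p under 0.05, with 636 genes at an unadjusted p under 0.05. By edgeR none of the 10 genes had an unadjusted p under 0.05. Their edgeR log2 fold changes, fibrous over bone, were above 0 in 5 and below 0 in 5. Their median was 0.20, beside 0.03 over all genes tested. DESeq2 called 169 genes (1.27%) and limma 0 in the same comparison, and neither called any of the 10. Each gave 1 of the 10 an unadjusted p under 0.05 (0.0493 by DESeq2 and 0.00831 by limma). With limma, 9 of the 10 lay above 0 and 1 below.

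**Figure D1:**
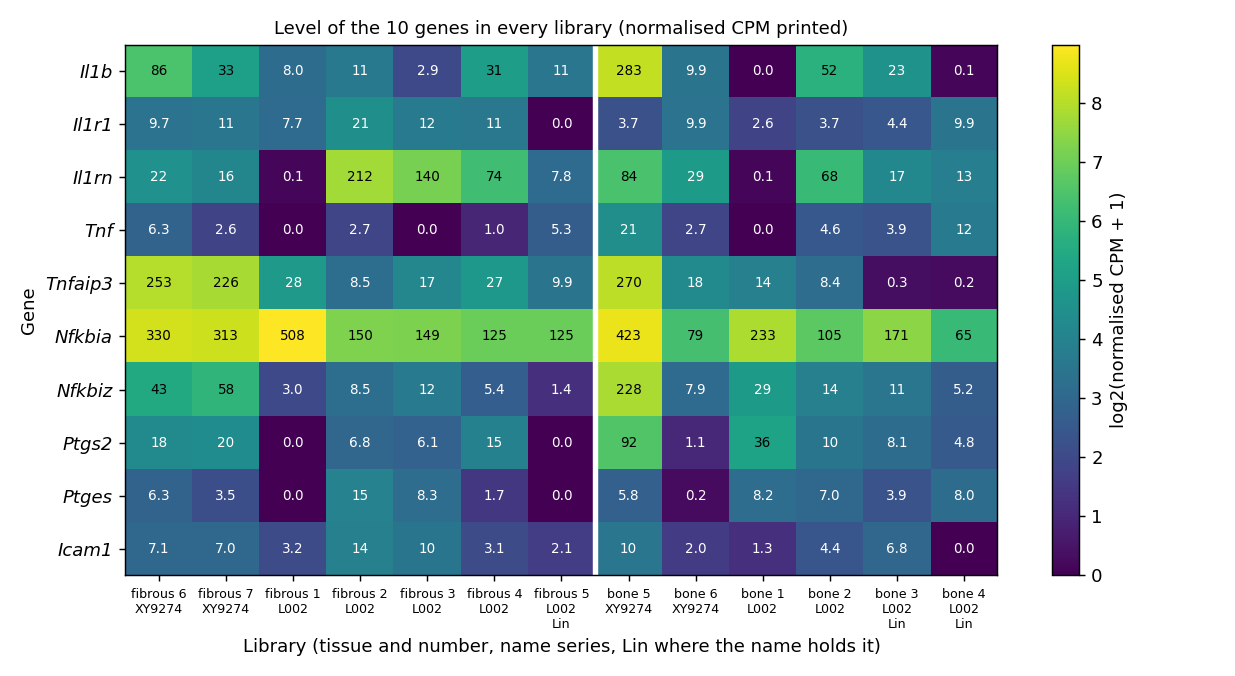
Heat map of the 10 genes (rows) in 7 fibrous libraries, left of the white line, and 6 bone libraries, right of it, with XY9274 libraries first on each side. Colour is log2(normalised CPM + 1) and each cell prints the normalised CPM. Fibrous and bone levels overlap for every gene, and the range within a tissue is wide, as for Tnfaip3 with 8.46 to 253 in fibrous and 0.201 to 270.0 in bone libraries.

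Among the ligands, Il1b (ENSMUSG00000027398, chr2:129364570-129371139, minus strand) encodes IL-1 beta, a cytokine made mainly by myeloid cells. It had 7.97, 11.4, 2.94, 31.4, 10.6, 85.8 and 32.9 normalised CPM in fibrous 1 to 7, against 0, 52.0, 22.7, 0.10, 283 and 9.91 in bone 1 to 6. Bone 5 was the highest and fibrous 6 the next, while bone libraries lay on both sides of all fibrous ones. The 0 in bone 1 allows up to 0.118 normalised CPM at 3 counts. The mean was 26.1 ± 28.7 normalised CPM in fibrous and 61.3 ± 110.4 in bone libraries (SD, n = 7 and 6). The log2 fold change was -0.78 (SE 1.18), with an adjusted p of 0.928, and its sign depended on the setting: it was 0.65 with limma and 0.15 without the 5 libraries low in Lepr. Reads of the antisense gene Il1bos cannot be told apart from those of Il1b, because the use of strand in the counting is not given.

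Tnf (ENSMUSG00000024401, chr17:35199381-35202007, minus strand) encodes TNF itself and was scarce. Fibrous 1 to 7 had 0, 2.70, 0, 0.974, 5.29, 6.34 and 2.63 normalised CPM, against 0, 4.56, 3.87, 12.1, 20.9 and 2.69 in bone 1 to 6. The zeros allow up to 0.117, 0.110 and 0.118 normalised CPM in fibrous 1, fibrous 3 and bone 1. These are the 3 libraries with the lowest pan-leukocyte sums, and bone 5, with the highest sum, had the most Tnf. Across the 13 libraries the Spearman correlation of Tnf with the pan-leukocyte sum was 0.912, against 0.659 for Il1b and 0.335 or less for each of the other 8 genes. These points share libraries and depth. Fibrous over bone, the log2 fold change of Tnf was -1.48 (SE 1.39, adjusted p 0.896). With a pan-leukocyte score as a covariate it was -0.78 for Tnf and 2.93 for Il1b. With the Lin-named libraries left out as well, an alternative chosen after seeing the data, it was 1.48 for Tnf and 2.61 for Il1b. None of the 10 genes was called in either fit, with adjusted p of 0.996 to 1.00.

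**Figure D2:**
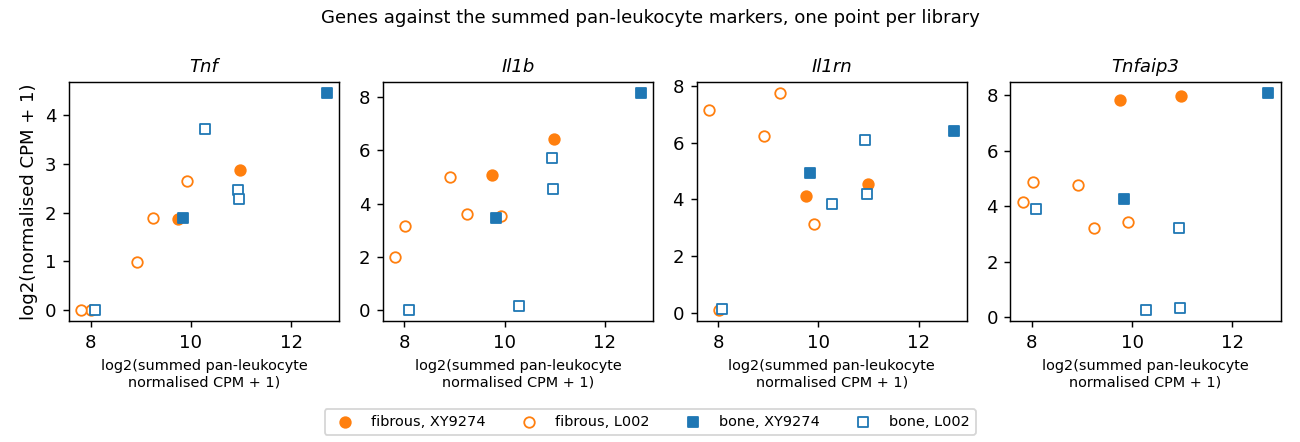
Levels of Tnf, Il1b, Il1rn and Tnfaip3 against the summed level of 8 pan-leukocyte markers, both as log2(normalised CPM + 1), 1 point per library, with circles for fibrous, squares for bone and filled symbols for XY9274 libraries. Tnf and Il1b are highest in bone 5, which also has the highest marker sum (6723), whereas Tnfaip3 has a Spearman correlation of 0.0 with that sum.

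On the receptor side, Il1r1 (ENSMUSG00000026072, chr1:40225080-40317257, plus strand) encodes the signalling receptor of IL-1. Its level was 7.73, 21.4, 12.0, 11.0, 0, 9.74 and 10.5 normalised CPM in fibrous 1 to 7, against 2.56, 3.69, 4.45, 9.93, 3.67 and 9.85 in bone 1 to 6. Most fibrous libraries were above most bone libraries, but fibrous 5 was at 0 (up to 0.185 at 3 counts) and the groups overlapped. The mean was 10.3 ± 6.33 normalised CPM in fibrous and 5.69 ± 3.31 in bone libraries. The log2 fold change of 0.88 (SE 0.90) had an adjusted p of 0.905. Gm38070 overlaps the span of Il1r1 on the same strand, and how reads in the overlap were counted is not given.

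Il1rn (ENSMUSG00000026981, chr2:24336853-24351494, plus strand) encodes the IL-1 receptor antagonist, which occupies the receptor without signalling. Fibrous 1 to 7 had 0.0781, 212, 139.9, 73.7, 7.82, 22.5 and 16.4 normalised CPM, and bone 1 to 6 had 0.118, 67.9, 17.3, 13.2, 84.4 and 29.2. Fibrous 1 and bone 1 were almost without it, and the plus-named fibrous libraries held 3 of the 4 highest levels. The highest fibrous library had 2719 times the level of the lowest, fibrous 1, a ratio that rests on 2 counts in fibrous 1. The log2 fold change was 0.86 (SE 1.45) with an adjusted p of 0.933.

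Of the feedback inhibitors, Nfkbia (ENSMUSG00000021025, chr12:55489410-55492647, minus strand) had the smallest spread of the 10, with 7.77 times as much in the highest library as in the lowest. It had 508, 149.6, 148.7, 125, 125, 330.0 and 313 normalised CPM in fibrous 1 to 7, and 233, 105, 171, 65.3, 423 and 79.2 in bone 1 to 6. It was well detected in all 13 libraries, highest in fibrous 1 and then bone 5. The mean was 243 ± 146 normalised CPM in fibrous and 179 ± 135 in bone libraries, with a log2 fold change of 0.50 (SE 0.46) and an adjusted p of 0.891.

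Tnfaip3 (ENSMUSG00000019850, chr10:19000910-19015657, minus strand), the gene of A20, had 28.3, 8.46, 16.9, 26.6, 9.91, 253 and 226 normalised CPM in fibrous 1 to 7, and 13.9, 8.37, 0.258, 0.201, 270.0 and 18.3 in bone 1 to 6. Fibrous 6, fibrous 7 and bone 5 stood far above the other 10 libraries. Its log2 fold change, fibrous over bone, was 1.36 (SE 0.86) with an adjusted p of 0.873.

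Nfkbiz (ENSMUSG00000035356, chr16:55811375-55838899, minus strand) encodes IkB-zeta, a nuclear IkB protein induced by IL-1. Its normalised CPM were 2.97, 8.49, 12.0, 5.40, 1.35, 43.4 and 58.1 in fibrous 1 to 7, and 29.1, 14.0, 10.6, 5.22, 228 and 7.93 in bone 1 to 6. The same 3 XY9274 libraries were highest, and bone 6 lay among the L002 libraries. Its tissue difference had the smallest unadjusted p of the 10 genes, 0.0803, with a log2 fold change of -1.26 (SE 0.67; 0.30 with limma) and an adjusted p of 0.873.

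Ptgs2 (ENSMUSG00000032487, chr1:150100031-150108227, plus strand) encodes cyclooxygenase-2, which makes the precursor of prostaglandins. It had 0, 6.79, 6.14, 14.6, 0, 18.4 and 20.0 normalised CPM in fibrous 1 to 7, and 35.8, 10.3, 8.05, 4.82, 92.2 and 1.07 in bone 1 to 6. The zeros in fibrous 1 and fibrous 5 allow up to 0.117 and 0.185, and the highest values were in bone 5 and bone 1. The log2 fold change was -1.38 (SE 1.22; 0.56 with limma), with an adjusted p of 0.890.

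Ptges (ENSMUSG00000050737, chr2:30889471-30929863, minus strand) encodes the inducible prostaglandin E synthase that acts after cyclooxygenase-2. It stayed below 15 normalised CPM, at 0, 14.9, 8.34, 1.75, 0, 6.27 and 3.52 in fibrous 1 to 7 and 8.20, 6.96, 3.87, 8.03, 5.79 and 0.214 in bone 1 to 6. Fibrous 1 and fibrous 5 were again at 0, and the groups overlapped. The log2 fold change was -0.09 (SE 1.27, adjusted p 0.992), and it was 1.16 without the 5 libraries low in Lepr. The processed pseudogene Gm13400 overlaps the span of Ptges on the same strand, and how its reads were counted is not given.

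Icam1 (ENSMUSG00000037405, chr9:21015985-21028817, plus strand) encodes an adhesion molecule for leukocytes. It had 3.16, 14.2, 10.4, 3.13, 2.09, 7.12 and 7.03 normalised CPM in fibrous 1 to 7, and 1.34, 4.35, 6.83, 0, 10.5 and 1.96 in bone 1 to 6. The 0 in bone 4 allows up to 0.301, and fibrous 2 was highest. Its log2 fold change was 0.80 (SE 0.95) with an adjusted p of 0.921, and reads of the antisense gene Gm47079 cannot be told apart from its own.

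**Figure D3:**
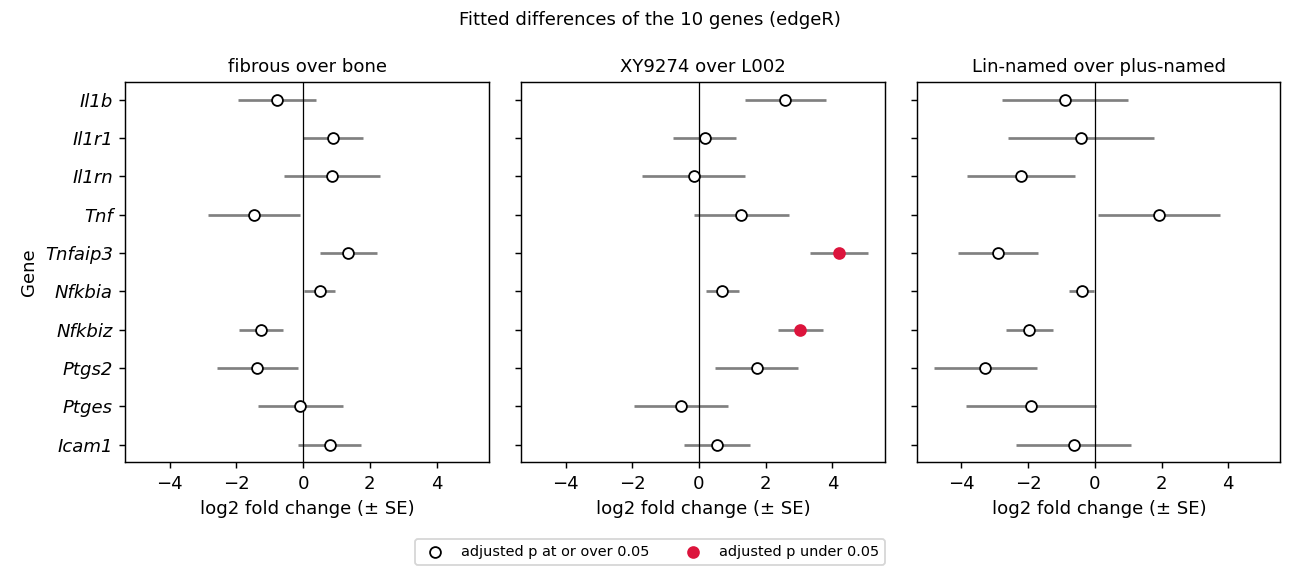
Log2 fold changes (points) with 1 SE either side (bars) of the 10 genes for fibrous over bone, XY9274 over L002 and Lin-named over plus-named, from edgeR, with calls at an adjusted p under 0.05 marked. The only calls are Tnfaip3 (4.20) and Nfkbiz (3.03) in XY9274 over L002.

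The tissue values within a name series also gave no call. Within L002 (5 fibrous and 4 bone libraries) edgeR called 0 of 12761 genes, or 0.0%, with 648 at an unadjusted p under 0.05, and within XY9274 (2 and 2) it called 0 of 15716, or 0.0%, with 562. DESeq2 called 138 (1.08%) and 226 (1.44%) genes and limma 1 (0.00784%) and 0, none of them among the 10. Il1rn was the gene whose fitted differences lay farthest apart, with a log2 fold change of 1.80 (SE 1.64) in L002 and -1.62 (SE 0.65) in XY9274. The test of that difference gave -3.36 (SE 2.71, adjusted p 1.00), and no gene passed it by edgeR (0.0% of 13294, 292 at an unadjusted p under 0.05). DESeq2 called 25 genes (0.188%) in that test and limma 0, with none of the 10 among them.

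Tnfaip3 and Nfkbiz were higher in the XY9274 libraries than in the L002 libraries. With tissue as a term, edgeR called 287 of 13294 genes, or 2.16%, of which 251 (1.89%) were higher and 36 (0.271%) lower in XY9274, and 2 of the 10 genes were among the higher ones. DESeq2 called 1982 genes (14.9%, with 7.95% higher) and limma 2946 (22.2%, with 15.1% higher), and each called the same 2 of the 10, both higher. Across the 10 genes the median was 0.98 on the log2 scale, beside 0.05 over all genes tested, and 8 of them lay above 0. The labels do not say whether XY9274 and L002 differ in animals, sort, library preparation or sequencing run, so these cannot be told apart. Depth and several marker sums move with the series as well. The pan-leukocyte sum was 860 to 6723 normalised CPM in XY9274 and 224 to 1992 in L002 libraries. Endothelial markers summed to 4.25 to 54.5 normalised CPM in XY9274 (3 to 6 of 6 detected) and 0.185 to 9.41 in L002 (1 to 4 of 6), with the defining gene Cdh5 at 0 in 10 of the 13 libraries. T and NK cell markers summed to 13.5 to 278 in XY9274 (3 to 6 of 6 detected) and 1.91 to 25.4 in L002 (1 to 4 of 6), with Cd3e at 0 in all L002 libraries and bone 6. The 2 mast cell markers in the matrix summed to 0.398 to 128.6 in XY9274 and 0 to 16.5 in L002. Osteoclast markers summed to 592 to 2007 in XY9274 (3 to 5 of 5 detected) and 396 to 584 in L002 (3 or 4 of 5), with Dcstamp at 0 in all L002 libraries, fibrous 6 and fibrous 7. The osteoclast list shares Mmp9 with the neutrophil list. The 7 erythroid markers, all detected in every library, summed to 1819 to 76646 in XY9274 and 27810 to 593546 in L002. Across the 13 libraries Nfkbiz had a Spearman correlation of 0.901 with the endothelial, 0.852 with the osteoclast and -0.830 with the erythroid sum, against 0.374, 0.599 and -0.665 for Tnfaip3. The part of these in the difference between the series was not tested.

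Tnfaip3 had 253, 226, 270.0 and 18.3 normalised CPM in fibrous 6, fibrous 7, bone 5 and bone 6, against 0.201 to 28.3 (median 9.91) in the 9 L002 libraries. Bone 6 alone of the XY9274 libraries fell within the L002 range. The means were 192 ± 117 and 12.5 ± 10.1 normalised CPM (SD, n = 4 XY9274 and 9 L002), with a log2 fold change of 4.20 (SE 0.88, adjusted p 0.0302). DESeq2 gave an adjusted p of 9.35e-05 and limma one of 0.000604. Without bone 5 the log2 fold change was 3.17 with an adjusted p of 0.204, and the call was also lost without fibrous 6 (adjusted p 0.0832), fibrous 7 (0.0577) or any one of the L002 libraries bone 2, fibrous 2, fibrous 3 and fibrous 5 (0.0513 to 0.0594). Without the 5 libraries low in Lepr it was 2.91 with an adjusted p of 0.142.

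Nfkbiz had 43.4, 58.1, 228 and 7.93 normalised CPM in fibrous 6, fibrous 7, bone 5 and bone 6, against 1.35 to 29.1 (median 8.49) in the L002 libraries. Again 3 of the 4 XY9274 libraries were above all L002 ones and bone 6 was not. The means were 84.4 ± 98.1 normalised CPM in XY9274 and 9.90 ± 8.33 in L002, and the log2 fold change was 3.03 (SE 0.68, adjusted p 0.0426; DESeq2 0.00111, limma 0.0484). This call was kept only when bone 1 or bone 6 was left out (adjusted p 0.0330 and 0.0128), and was lost without any other single library, with a log2 fold change of 2.28 and an adjusted p of 0.338 without bone 5. Leaving out the 3 Lin-named libraries gave 2.62 with an adjusted p of 0.127, and leaving out the 5 libraries low in Lepr gave 1.53 with an adjusted p of 0.495.

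**Figure D4:**
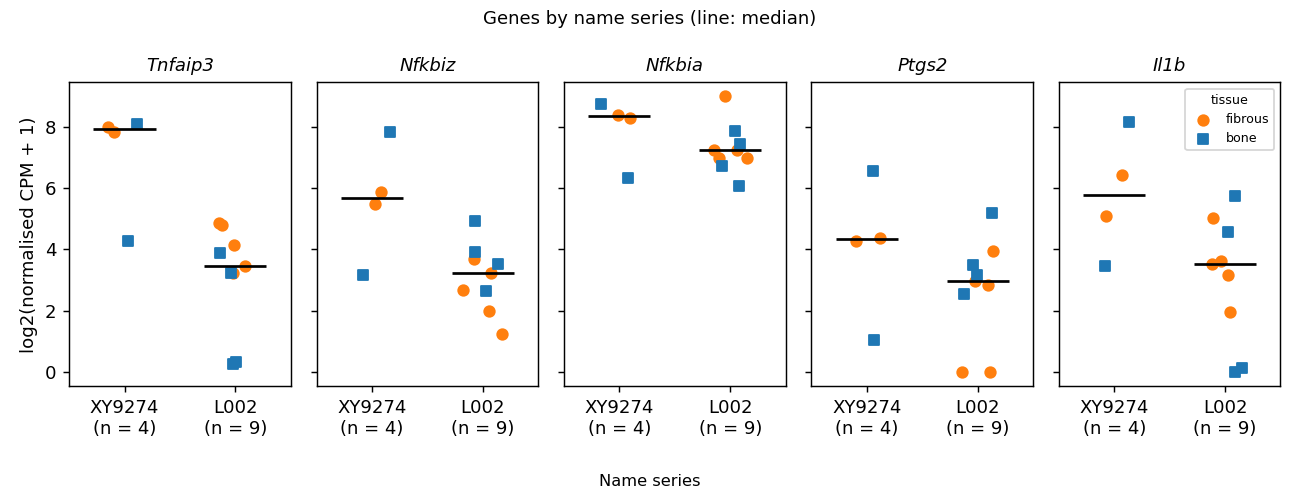
Levels of 5 of the genes as log2(normalised CPM + 1) in the 4 XY9274 libraries, left, and the 9 L002 libraries, right, 1 point per library, with circles for fibrous, squares for bone and a line at the median. For Tnfaip3 and Nfkbiz, fibrous 6, fibrous 7 and bone 5 lie above all L002 libraries and bone 6 lies among them.

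The other 8 genes did not pass between the series. Il1b came nearest, with 85.8, 32.9, 283 and 9.91 normalised CPM in fibrous 6, fibrous 7, bone 5 and bone 6 against 0 to 52.0 (median 10.6) in L002, a log2 fold change of 2.59 (SE 1.21) and an adjusted p of 0.226. Bone 5 and fibrous 6 exceeded the L002 range, while the other XY9274 libraries did not. Ptgs2 had 18.4, 20.0, 92.2 and 1.07 normalised CPM in the XY9274 libraries, in the same order, against 0 to 35.8 in L002. Only bone 5 exceeded the L002 range for Ptgs2, and the log2 fold change was 1.73 (SE 1.24, adjusted p 0.428). Nfkbia (0.70, SE 0.48, adjusted p 0.407), Tnf (1.27, SE 1.42, 0.635) and Icam1 (0.55, SE 0.99, 0.786) had values above 0. Il1r1 (0.17), Il1rn (-0.15) and Ptges (-0.54) had log2 fold changes near 0 relative to their SE of 0.95, 1.54 and 1.41.

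Among the other genes of the pathway, edgeR called 6 in 7 lists between the series, all higher in XY9274. Over all genes tested it called 1.89% higher and 0.271% lower. Of the IL-1 family and its signalling, 1 of 16 tested genes rose: Traf6, the ubiquitin ligase below the IL-1 receptor, with 42.5 to 71.1 normalised CPM in XY9274 and 2.13 to 20.0 in L002 libraries (log2 fold change 2.58, SE 0.55, adjusted p 0.0328). Of the NF-kB subunits and kinases, 1 of 12 rose, the kinase gene Map3k7 (TAK1), with 55.7 to 76.5 normalised CPM in XY9274 and 14.4 to 51.9 in L002 (1.21, SE 0.27, adjusted p 0.0428). For both genes the 2 series did not overlap. Of the other inhibitors and feedback genes, 1 of 12 rose: Zfp36, whose product speeds the decay of cytokine mRNAs, with 398 ± 185 normalised CPM in XY9274 and 136 ± 68.1 in L002 (1.61, SE 0.36, adjusted p 0.0404). Traf6, Map3k7 and Zfp36 were called by DESeq2 and limma too. DESeq2 and limma called 4 and 3 genes of the IL-1 list, 2 and 2 of the subunits and kinases, and 3 and 4 of the inhibitors, all higher. Over all genes tested, DESeq2 called 14.9% (7.95% higher) and limma 22.2% (15.1% higher). Whether these lists differ from those shares was not tested. None of 15 TNF family, 8 inflammatory target or 13 prostaglandin genes was called by edgeR in that comparison, where DESeq2 called 2, 2 and 3 and limma 1, 0 and 3. Of those prostaglandin calls, 1 by DESeq2 and 2 by limma were lower in XY9274.

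The median log2 fold change was 1.19 for the IL-1 list, 1.07 for the subunits and kinases, 0.76 for the inhibitors and 0.57 for the TNF list, beside 0.05 over all genes. The list of immediate early genes also held the heat shock genes Hspa1a and Hspa1b. It lay above 0 in 14 of 14 genes, with a median of 1.98. Immediate early genes respond to cell handling as well as to signals. Of the list, 3 rose: Nr4a1 (log2 fold change 4.05, adjusted p 0.00847), Fosb (4.61, 0.0295) and Hspa1b (4.16, 0.0353), whose reads may be shared with its near-identical neighbour Hspa1a. DESeq2 called 6 of the 14 and limma 12, all higher, beside 7.95% and 15.1% of all genes tested. Nr4a1 and Fosb were called by both, and Hspa1b by limma but not by DESeq2. The part of the genes of this list in the Tnfaip3 and Nfkbiz values was not tested. Without the Lin-named libraries, and likewise without those low in Lepr, none of the genes of these 7 lists was called. Of the 13 single libraries, leaving out 8 ended the call of Traf6, 11 that of Map3k7 and 10 that of Zfp36, and their log2 fold changes stayed above 0. Leaving out single libraries gave 0 to 8 calls among the immediate early genes, 0 to 2 in the IL-1 list and 0 or 1 in each of the subunit, inhibitor and prostaglandin lists.

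In the tissue comparison none of the genes of these lists was called by edgeR or limma. DESeq2 called 4 (Il33, Cxcl10 and Ptgir higher and Tnfsf13b lower in fibrous libraries), beside 1.27% of all genes tested. Within L002, the edgeR log2 fold changes of Il33, Cxcl10 and Ptgir were 9.18, 9.24 and 8.54. The fitted tissue difference in XY9274 minus that in L002 was -10.2, -10.2 and -10.1, with no call by edgeR. Tnfsf13b, the B cell survival factor BAFF, had 2.42 to 6.80 normalised CPM (median 2.76) in fibrous and 4.68 to 31.4 (median 9.09) in bone libraries, with a log2 fold change of -1.68 (SE 0.54) and an edgeR adjusted p of 0.873.

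Lin-named and plus-named L002 libraries did not differ in any of the 10 genes by edgeR, although 1097 of 13450 genes (8.16%) were called, 424 (3.15%) higher and 673 (5.0%) lower in Lin-named libraries. Of the 10 genes, 9 had log2 fold changes below 0, with a median of -1.41 beside -0.21 over all genes, and 2 had an unadjusted p under 0.05. DESeq2 called 3 of them lower, among 3493 genes (26.0%, with 16.1% lower), and limma called none, among 629 (4.68%). Lepr was 0.602 to 0.739 normalised CPM in Lin-named and 46.7 to 804 in plus-named libraries, the summed marrow stromal markers 797 to 5281 and 23238 to 80037, and the summed erythroid markers 235544 to 593546 and 27810 to 76113. The part of cell makeup in the gene values was not tested. Bone 4 and bone 2 share a name token, as do fibrous 5 and fibrous 2, and whether such a pair came from 1 animal is not given.

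Tnfaip3 had 9.91, 0.258 and 0.201 normalised CPM in fibrous 5, bone 3 and bone 4, against 8.46, 16.9, 26.6, 13.9 and 8.37 in fibrous 2, fibrous 3, fibrous 4, bone 1 and bone 2. Both Lin-named bone libraries were far below every plus-named one, and fibrous 5 lay among them. The log2 fold change was -2.91 (SE 1.20) with an adjusted p of 0.165 by edgeR and 0.0189 by DESeq2. Without fibrous 5, the only Lin-named fibrous library, it was -5.57 with an edgeR adjusted p of 0.0350. That fit rests on bone 3 and bone 4, with 4 and 2 counts of Tnfaip3. Leaving out each of the 8 libraries in turn gave -5.57 to -2.13, with edgeR adjusted p of 0.0350 to 0.363.

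Nfkbiz had 1.35, 10.6 and 5.22 normalised CPM in fibrous 5, bone 3 and bone 4, against 8.49, 12.0, 5.40, 29.1 and 14.0 in fibrous 2, fibrous 3, fibrous 4, bone 1 and bone 2. The groups overlapped through bone 3, and the log2 fold change was -1.96 (SE 0.70; adjusted p 0.122 by edgeR, 0.0129 by DESeq2). Ptgs2 had 0, 8.05 and 4.82 normalised CPM in the same Lin-named libraries, against 6.79, 6.14, 14.6, 35.8 and 10.3 in the plus-named ones, and a log2 fold change of -3.29 (SE 1.55; adjusted p 0.213 by edgeR, 0.0137 by DESeq2). Tnf alone had a value above 0, with 5.29, 3.87 and 12.1 normalised CPM in Lin-named libraries and 2.70, 0, 0.974, 0 and 4.56 in plus-named ones (log2 fold change 1.93, SE 1.83, adjusted p 0.538).

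Of 11 tested genes known as targets of IL-1 and TNF, 4 were called lower in the Lin-named libraries, beside 5.0% of all genes tested. Their log2 fold changes were below 0 in 7 and above 0 in 4. Mmp13, a collagenase gene, had 59.1 ± 40.7 normalised CPM in Lin-named and 682 ± 290 in plus-named libraries (log2 fold change -3.52, SE 0.53, adjusted p 0.0194). Vcam1, an adhesion molecule and stromal marker, had 0.902 to 12.2 and 79.5 to 629 normalised CPM (-5.17, SE 1.26, adjusted p 0.0475). Mmp3, the gene of stromelysin-1, had 0 counts in all 3 Lin-named libraries, which allows up to 0.185 to 0.301 normalised CPM, and 6.41 to 35.2 in plus-named ones. Outside this comparison, Mmp3 was also at 0 in fibrous 1, fibrous 6 and bone 6, where Lepr was 0.469, 67.2 and 102 normalised CPM. Saa3, an acute phase gene, had at most 0.10 normalised CPM in Lin-named and 0.568 to 11.5 in plus-named libraries. It was also at 0 in fibrous 1 and fibrous 6. DESeq2 called all 4 and limma all but Vcam1 (adjusted p 0.138). Over all genes tested, DESeq2 called 26.0% (16.1% lower) and limma 4.68%. In the 4 libraries that share a name token, fitted with that token as a block, none of the 4 passed (adjusted p 0.0650 to 0.246).

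Of the list of immediate early genes, with Hspa1a and Hspa1b, 14 of 14 lay below 0 in the Lin-named libraries. By edgeR 3 were called lower, beside 5.0% of all genes tested: Jun (log2 fold change -1.66, adjusted p 0.0343), Socs3 (-4.69, 0.0352) and Ier3 (-2.13, 0.0469). Ptges3, a prostaglandin E synthase that is also a co-chaperone, rose to 133.8 ± 10.9 normalised CPM in Lin-named libraries, against 82.4 ± 8.27 in plus-named ones (0.69, adjusted p 0.0410), 1 of 14 prostaglandin genes tested. DESeq2 called these 4 genes as well, but limma did not (adjusted p 0.0538 to 0.220), nor did the fit with the name token as a block (0.112 to 0.406). None of 16 IL-1, 15 TNF, 12 subunit or 12 inhibitor genes was called by edgeR or limma, where DESeq2 called 1, 3, 1 and 1. Over all genes tested, DESeq2 called 26.0%, limma 4.68% and edgeR 8.16% (3.15% higher), so the DESeq2 counts do not set these lists apart. Leaving out single libraries gave 0 to 3 calls among the targets and 0 to 2 among the immediate early genes.

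Compared per kilobase of exon, Nfkbia stood above the other 9 genes in all 13 libraries, with a median of 92.9 normalised CPM per kilobase. Il1b (5.96), Il1rn (4.06), Tnfaip3 (2.33), Nfkbiz (2.11), Ptgs2 (1.76), Tnf (1.64), Il1r1 (1.53), Ptges (1.47) and Icam1 (0.998) followed by the same measure. Below Nfkbia, neighbours in this order were not separated by their spread: each stood above the next in only 4 to 10 of the 13 libraries. By library, bone 5 had the highest level of 5 of the genes (Il1b, Tnf, Tnfaip3, Nfkbiz and Ptgs2), and fibrous 2 that of 4 (Il1r1, Il1rn, Ptges and Icam1). Bone 6, from the same tissue and name series as bone 5, had none of the 3 highest levels of any gene.

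Likeness of pattern was measured by Spearman correlation over the 13 libraries among 12034 genes, and describes these libraries only. Within the 10 genes, Nfkbiz and Ptgs2 were most alike (0.872), followed by Il1rn with Icam1 and Tnfaip3 with Nfkbia (both 0.670), and Tnfaip3 and Ptges were least alike (-0.338). The gene most like Nfkbiz was the immediate early gene Fos (0.934), which had 280 to 1405 normalised CPM in XY9274 and 231 to 915 in L002 libraries, again lowest of the XY9274 libraries in bone 6. Tnfaip3 was most like Hnrnpu (0.978), a gene of a nuclear RNA-binding protein, at 1006 to 1244 normalised CPM in XY9274 and 121 to 1010.2 in L002 libraries.

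The genes most like Il1b were Cd300ld (0.942), Il1r2 (0.940) and Csf3r (0.934), of which Il1r2 encodes the decoy receptor of IL-1 and Csf3r the receptor of G-CSF on neutrophils. Il1r2 was highest in the same libraries as Il1b, with 234 normalised CPM in bone 5 and 64.8 in fibrous 6. Tnf was most like Ccr1 (0.956), a chemokine receptor gene of myeloid cells, and Il1rn most like Hp (0.956), the haptoglobin gene. Il1r1 was most like Heph (0.933), Nfkbia like Rassf1 (0.923), Ptgs2 like Manba (0.905), Ptges like Il18bp (0.905), the gene of the IL-18 binding protein, and Icam1 like P2ry10b (0.955).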

How the data were processed

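The 13 libraries hold polyA RNA, prepared with an RNeasy Plus Micro kit and TruSeq and sequenced on a NovaSeq, per the labels' protocols. The deposited values are raw whole-number counts per gene in 1 matrix of 23211 mouse Ensembl IDs, all of which matched a symbol. Builds named in the submitters' processing notes are mm10 and hg38, and the tool named is edgeR, each without its role. Aligner, annotation and use of strand: not given in the sources used here. Coordinates are from GENCODE M21 (mm10).

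From these counts, edgeR 4.0.16 in R 4.3.3 (TMM, filterByExpr, robust quasi-likelihood F test) was run over all genes, with tissue and name series as terms, with Benjamini-Hochberg adjustment and calls at an adjusted p under 0.05. SE is the log2 fold change over the root of F. Lin-named and plus-named libraries were compared with tissue as a term. Alternatives were limma 3.58.1 (voom, library quality weights), DESeq2 1.42.0, other scalings and filters, libraries left out and a pan-leukocyte covariate. The fit was tested on simulated data. A zero is given with the level that 3 counts would have, which covers counting error only.

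The 10 genes, the lists of pathway genes and the markers were chosen with earlier results of these data known. All 10 genes are named. Of a list, at most 4 genes by smallest p are named in a comparison. The 3 genes most like each of the 10 were taken, leaving out predicted genes, and 1 to 3 are named. Replicate numbers follow accession order and pair no libraries.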

Additional observations from a re-analysis of the deposited data

Results flagged for a closer look

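The level of each of the 10 genes was examined for a library far from the others in 4 sets of libraries (fibrous, bone, XY9274 and L002), 40 groups in all, and 9 were flagged by Dixon's criterion at the 95% level. Chance flags about 1 in 20 groups where values are normally distributed. The levels were taken as normalised CPM without a log scale, and skewed levels can raise that rate. The sets also share libraries.

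Among the bone libraries, bone 5 stood apart for Il1b (283 normalised CPM, next 52.0), Tnfaip3 (270.0, next 18.3) and Nfkbiz (228, next 29.1). Bone 5 also had the highest pan-leukocyte sum, 6723 normalised CPM, and its part in these values was not tested. Among the XY9274 libraries, bone 5 was the lowest for Il1r1 (3.67, next 9.74). Among the fibrous libraries, fibrous 6 stood apart for Il1b (85.8, next 32.9).

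Among the L002 libraries, bone 1 stood apart for Nfkbiz (29.1, next 14.0) and Ptgs2 (35.8, next 14.6). In the same set, bone 4 was the highest for Tnf (12.1, next 5.29), and fibrous 1 for Nfkbia (508, next 233).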

How the results depend on the processing

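No member passed between fibrous and bone libraries under any alternative run. DESeq2 called 169 genes there, 1982 for XY9274 over L002, 25 for the interaction, 138 within L002, 226 within XY9274 and 3493 for Lin-named over plus-named, and limma called 2946 for the series, 1 within L002 and 629 for Lin-named over plus-named. Without the libraries low in Lepr the series gave 32 calls. The replicate block by shared name token (4 libraries in 2 pairs) gave 15 calls for Lin-named over plus-named, and counting fibrous 1 as plus-named gave 354. Whether that token pairs libraries was not tested, and replicate numbers pair none. Leaving out single libraries gave 87 to 470 calls for the series, fewest without fibrous 6 and bone 5, and 138 to 992 for Lin-named over plus-named. The series count rose over 1.5 times without bone 1 and dropped as far without fibrous 2, 3, 6 or 7 or bone 3, 4 or 5. That for Lin-named libraries dropped as far without any of bone 1 to 4 or without fibrous 2 or 3.

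Signs of uncalled log2 fold changes turned as follows, and the cause was not tested. For fibrous over bone, limma gave Il1b 0.65, Nfkbiz 0.30, Ptgs2 0.56, Ptges 0.22 and Rel 1.69. The pan-leukocyte covariate gave Il1b 2.93 and Ptges 0.13, and without the Lin-named libraries as well, an alternative chosen after seeing the data, Il1b 2.61, Tnf 1.48, Ptges 0.62 and Ptgs1 0.20. Without the Lin-named libraries Ptges was 0.14, and without those low in Lepr Il1b was 0.15, Ptges 1.16 and Ptgs1 0.023. Without the series term Ptgir was -0.31. For the series, Ptgs2 (-0.062) and Icam1 (-0.49) turned without the libraries low in Lepr and Ptges (0.36) with limma. For Lin-named over plus-named, Il1b was 0.17 with limma. Leaving out single libraries gave Ptges -0.74 to 0.16 by tissue. By series it gave Il1r1 -0.19 to 0.39, Il1rn -1.06 to 0.54, Ptges -0.89 to 0.021 and Icam1 -0.15 to 0.90. By Lin name it gave Il1b -2.03 to 3.48, Il1r1 -3.39 to 1.19, Il1rn -3.21 to 0.46 and Icam1 -3.33 to 0.26.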
